A study of Danio rerio with 6 samples.

Results

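Macrophage marker genes were followed in the zebrafish larval fin fold, the thin skin fold around the tail. They were chosen by name, with earlier results of these data known. They form 8 rows of the deposited table among its 32266 genes: spi1b, irf8, csf1ra, csf1rb, mpeg1.1, mpeg1.2, marco and cd74a. RNA sequencing had been done on 3 libraries of uncut folds and 3 libraries of folds taken 4 h after amputation, from larvae aged 3 days. The sample descriptions of both groups name DMSO, a solvent, and no drug; the labels name no strain and no genotype. Whether the replicates of a group came from separate clutches or dishes is not stated, so the p-values measure the spread between these libraries, which may be technical.

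Macrophages are phagocytes that patrol tissues, take up microbes and dead cells, and gather at wounds. Their development depends on the ETS factor PU.1 (spi1b) and on Irf8, and their survival and growth on the receptor Csf1r, which binds Csf1 and Il34. Perforin-2 (the mpeg1 genes) forms pores in engulfed bacteria, Marco is a scavenger receptor, and Cd74 is the invariant chain that guides MHC class II molecules. In zebrafish, the mpeg1.1 promoter is the usual driver of macrophage reporters, spi1b is also active in neutrophils and their precursors, and csf1ra is also a gene of xanthophores, the yellow pigment cells. No sequences of these genes are shown.

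Total counts ran from 11216130 to 23019556 per library, and the 8 genes together took 738 to 2358 of them. Levels are given as CPM (counts divided by each library's TMM-scaled total), where a single count was worth 0.0436 to 0.0972 CPM. Genes of the fin fold itself were abundant in every library: the summed level of 9 epidermal and actinotrichia genes lay between 199600 and 211700 CPM in uncut folds and between 102500 and 116600 CPM after amputation. The uncut library numbered 1 lay far from the rest on the second principal component. Without it, the log2 fold changes given below were 3.27 for irf8, 2.83 for spi1b, 2.14 for marco, 1.89 for mpeg1.1 and 0.96 for csf1rb, all still called (edgeR adjusted p of 0.0366 or lower).

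Of the 8 genes, 6 rose after amputation, 1 fell and 1 did not pass the test. The transcription factor genes irf8 and spi1b rose most among them, by 8.0-fold and 6.16-fold, the scavenger receptor gene marco by 3.80-fold and mpeg1.1 by 3.47-fold. The receptor genes csf1rb and csf1ra rose by 2.16-fold and 1.32-fold. The second perforin-2 gene, mpeg1.2, fell to 0.653 of its uncut level, and cd74a did not pass. Calls were made at an edgeR adjusted p under 0.05 over all 17883 tested genes, of which 20.8% were called higher and 19.6% lower. Of the members, 6 of 8 were called higher, and 5 of the 8 also had a log2 fold change of at least 1. Of all tested genes, 4.53% were called higher with a change of that size. The members were chosen with earlier results of these data known, and irf8 reached the low-count filter through the amputated libraries. These shares are therefore descriptions and not a test of the members. In bulk tissue, more macrophages in the fold, more RNA per macrophage, reads from other cells and a changed share of other tissue cannot be told apart.

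**Figure D1:**
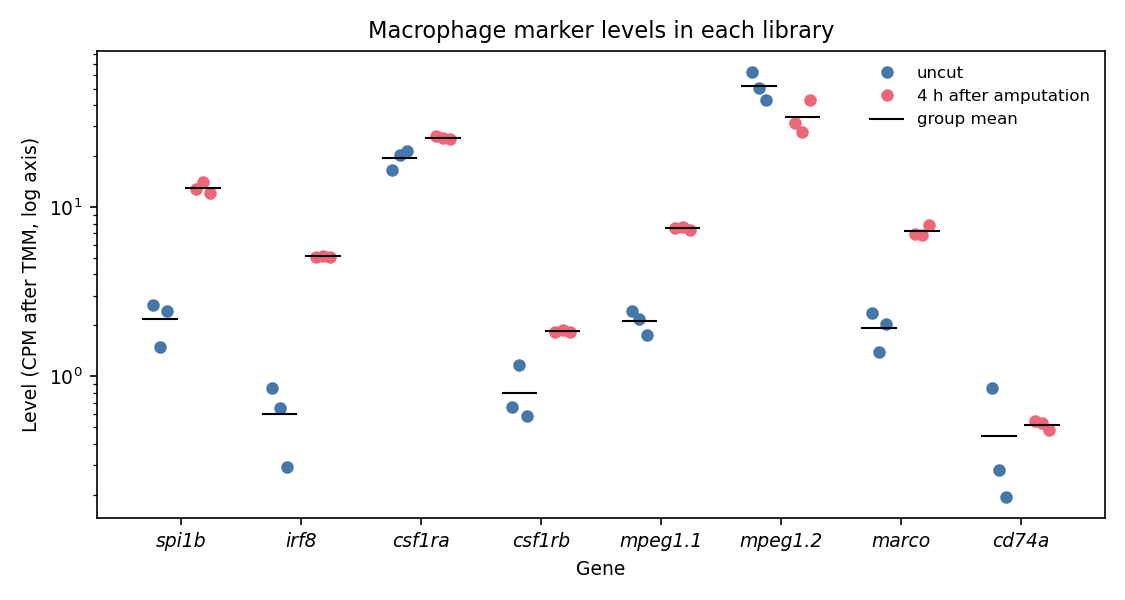
Level of each macrophage marker gene in each library (CPM after TMM, log axis), with uncut libraries in blue, amputated libraries in red and a bar at each group mean (n = 3). The amputated points lie above the uncut points for spi1b, irf8, csf1ra, csf1rb, mpeg1.1 and marco, below them for mpeg1.2 by a margin of 0.0777 CPM, and among them for cd74a.

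The 2 groups did not overlap in 6 members in the upward direction, where 26.9% of all tested genes did not, and in 1 member downward, against 24.1%. All 8 passed the filter on low counts, which asked for about 0.534 CPM in at least 3 libraries. For the filter, CPM was taken on library totals before TMM scaling. On the TMM-scaled levels given here, cd74a was above 0.534 CPM only in uncut replicate 1 (0.857) and amputated replicate 1 (0.545). The gene irf8 reached that level in all amputated but not in all uncut libraries, and cd74a reached it in neither whole group.

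The myeloid regulators had few reads in the uncut fold. For spi1b (ENSDARG00000000767, chromosome 7, 32373523 to 32388203), the uncut libraries 1, 2 and 3 held 40, 32 and 25 counts, or 2.64, 1.49 and 2.43 CPM. The amputated libraries held 260, 293 and 277 counts, or 12.9, 14.1 and 12.1 CPM. Every amputated library was far above every uncut library. This was a log2 fold change of 2.62 ± 0.20 (SE), with an edgeR adjusted p of 1.96e-06, and spi1b ranked 117 of all tested genes by p. Another listed gene, si:ch73-314g15.3, overlaps spi1b; it had 610 counts over all libraries and a log2 fold change of 0.33 ± 0.16, and its own reads did not pass the test. Reads in the overlap cannot be assigned by strand, because the library kit does not mark it.

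The gene irf8 (ENSDARG00000056407, chromosome 18, 30589691 to 30595595), whose loss in zebrafish leaves early larvae lacking macrophages, had 13, 14 and 3 counts in the uncut libraries. These gave 0.857, 0.651 and 0.292 CPM. After amputation it had 103, 107 and 117 counts, or 5.10, 5.14 and 5.10 CPM. The groups were well apart, and the uncut level rested on 3 to 14 counts per library. The log2 fold change was 3.00 ± 0.27 (SE), with a 95% interval of 2.41 to 3.59 and an edgeR adjusted p of 6.43e-06. The value was 2.77 without uncut replicate 3, the library with 3 counts. The ratio of irf8 to spi1b within a library did not separate the groups: on the log2 scale it was −1.87 ± 0.89 in uncut and −1.34 ± 0.11 in amputated libraries (SD, n = 3; exact permutation p = 0.5, adjusted 0.5 over the 6 ratios tested).

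The Csf1 receptor is encoded by a pair of genes in zebrafish, and both rose, csf1ra from a well-measured level and csf1rb from a low one. For csf1ra (ENSDARG00000102986, chromosome 14, 3170816 to 3202049), the uncut level was 16.6, 20.3 and 21.4 CPM and the amputated level 26.4, 25.6 and 25.2 CPM, in replicate order. The groups did not overlap, but uncut replicate 1 lay lower than the other uncut libraries. On the log2 scale the change was 0.41 ± 0.11 (SE), with an edgeR adjusted p of 0.0104, and it was 0.31 without uncut replicate 1 (adjusted p = 0.0185). For csf1rb (ENSDARG00000053624, chromosome 21, 43846478 to 43885949), the uncut libraries had 10, 25 and 6 counts and the amputated ones 37, 39 and 42. In CPM these were 0.659, 1.16 and 0.583 against 1.83, 1.87 and 1.83. Uncut replicate 2 was the highest of its group and still below all amputated libraries. The log2 fold change was 1.11 ± 0.30 (SE; 95% interval 0.45 to 1.77), and the edgeR adjusted p was 0.0116. A second listed gene, CU499330.1, overlaps csf1rb; it had 193 counts over all libraries and a log2 fold change of 1.02 ± 0.31, so that shared reads could bear on either value.

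The log2 ratio of csf1ra to csf1rb counts was between 4.101 and 5.084 in the uncut libraries and between 3.75 and 3.83 in the amputated ones. It was lower in every amputated library, by 0.81 on average. The exact two-sided permutation test gave p = 0.1 (0.15 adjusted over the 6 ratios), and 0.1 is the smallest p that 3 against 3 libraries allow.

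Because xanthophores also use csf1ra, the pigment cell genes were set beside it. Of 16 such genes 1 rose (ltk, an iridophore receptor kinase, 0.95 ± 0.13 on the log2 scale) and 6 fell, with a median log2 fold change of −0.34. The shares of all tested genes were 20.8% called higher and 19.6% called lower. The summed level of the 16 was 190.5 to 271 CPM in uncut and 198 to 214 CPM in amputated libraries. The melanophore genes tyr (tyrosinase) and slc24a5 (an ion exchanger) fell by 0.96 and 0.84, and the iridophore gene pnp4a by 0.88. The xanthophore genes gch2 (−0.34 ± 0.36), xdh (0.17 ± 0.19) and aox5 (−0.15 ± 0.14) did not pass the test. The listed genes pax7a (−0.48 ± 0.21) and pax7b (−0.33 ± 0.17) did not pass either. In both, every amputated library was below every uncut one, as in 24.1% of all tested genes. Without uncut replicate 2, pax7a was called lower. The call of pnp4a was lost without amputated replicate 2 (edgeR adjusted p = 0.0597) or amputated replicate 3 (0.0505). The count of pigment genes that fell was 3 with library totals alone, and 3 again without uncut replicate 3 or without any single amputated library. How much of the csf1ra reads came from pigment cells was not tested.

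The perforin-2 genes went in opposite directions. For mpeg1.1 (ENSDARG00000055290, chromosome 8, 29700878 to 29704389), the uncut libraries had 37, 47 and 18 counts, or 2.44, 2.19 and 1.75 CPM. The amputated libraries had 153, 158 and 169 counts, or 7.57, 7.60 and 7.37 CPM. The amputated libraries lay close together and all above the uncut ones. Its log2 fold change was 1.80 ± 0.18 (SE), at an edgeR adjusted p of 1.17e-05.

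For mpeg1.2 (ENSDARG00000043093, chromosome 8, 19325655 to 19329417), the uncut libraries had 955, 1090 and 443 counts, or 62.9, 50.7 and 43.1 CPM. The amputated libraries had 639, 580 and 986 counts, or 31.6, 27.9 and 43.0 CPM. Amputated replicate 3 was level with uncut replicate 3, so the groups only just failed to overlap. Its log2 fold change was −0.61 ± 0.16 (SE; 95% interval −0.96 to −0.27), with an edgeR adjusted p of 0.00893. It ranged from −0.82 to −0.46 with a library left out in turn and passed each time (adjusted p 0.00183 to 0.0494). With library totals alone as the scaling, mpeg1.2 was at −0.36 and did not pass (adjusted p = 0.0787); that scaling moved the median of all tested genes from 0.003 to 0.259, and mpeg1.2 lay 0.62 below that median.

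A ratio within a library is free of scaling. The log2 ratio of mpeg1.1 to mpeg1.2 counts was −4.67, −4.52 and −4.58 in the uncut and −2.06, −1.87 and −2.54 in the amputated libraries. The uncut libraries lay close together (SD 0.076), and every amputated library was higher, by 2.43 on average (exact two-sided permutation p = 0.1, the smallest possible; 0.15 adjusted over 6 ratios). Per kb of the listed gene span, which counts any intron, the level of mpeg1.2 was 21.6 to 24.1 times that of mpeg1.1 in uncut libraries and 3.43 to 5.45 times after amputation. Most perforin-2 reads of the fold thus came from mpeg1.2 in both groups. One more copy, mpeg1.3, is listed 51.9 kb before mpeg1.1 on chromosome 8 and had 1 count in each group.

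**Figure D2:**
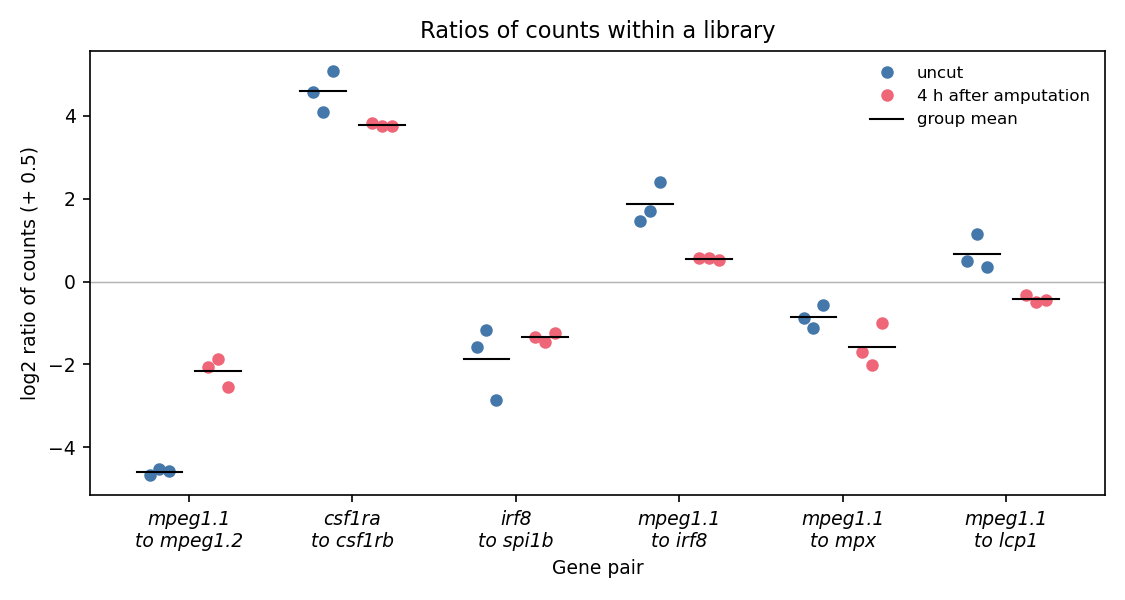
Log2 ratio of the counts of gene pairs within each library (0.5 added to each count), with uncut libraries in blue, amputated libraries in red and a bar at each group mean (n = 3). The ratio of mpeg1.1 to mpeg1.2 was higher in all amputated libraries, those of csf1ra to csf1rb, mpeg1.1 to irf8 and mpeg1.1 to lcp1 were lower in all of them, and the other two overlapped.

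Of the cell surface and antigen-handling genes, marco (ENSDARG00000059294, chromosome 9, 796083 to 813878) had 36, 30 and 21 counts in the uncut libraries, or 2.37, 1.40 and 2.04 CPM. After amputation it had 140, 142 and 179 counts, or 6.93, 6.83 and 7.81 CPM. The groups were well apart, with amputated replicate 3 the highest. On the log2 scale the rise was 1.93 ± 0.21 (SE; edgeR adjusted p = 2.41e-05).

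The gene cd74a (ENSDARG00000009087, chromosome 14, 2787356 to 2801244) was barely detected. Uncut libraries held 13, 6 and 2 counts and each amputated library 11, or 0.857, 0.279 and 0.194 CPM against 0.545, 0.529 and 0.480 CPM. Uncut replicate 1 was above and the other uncut libraries below all amputated ones. The log2 fold change was 0.20 ± 0.50 (SE), with a 95% interval of −0.90 to 1.29 and an edgeR adjusted p of 0.783. Neither a rise nor a fall of up to about the size of that interval was detectable with these libraries. The value was 1.03 without uncut replicate 1 and −0.16 without uncut replicate 2.

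The spread among amputated libraries was small for several members. Between them the coefficient of variation was 0.488% for irf8, 1.35% for csf1rb, 1.66% for mpeg1.1 and 2.42% for csf1ra. Counting error alone gives on average 9.59%, 16.0%, 7.92% and 4.28% for the same genes. These libraries were therefore closer than their counts can resolve, and the SDs understate the error; the standard errors above come from the fit, which includes counting error. For mpeg1.2 the spread was 19.2% in uncut and 23.0% in amputated libraries, against 3.63% and 3.69% from counting.

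The log2 ratio of mpeg1.1 to irf8 was 1.86 ± 0.48 in uncut and 0.55 ± 0.02 in amputated libraries (SD, n = 3), without overlap. The permutation test again gave its smallest value (exact p = 0.1, adjusted 0.15). The uncut values of this ratio rest on the few irf8 counts given above.

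Other macrophage markers were set beside the 8 genes. They too were chosen with earlier results of these data known, so they are not a separate check on the 8. Of 24 found in the table, 13 rose, 0 fell, 6 did not pass and 5 had too few counts to test. Among all tested genes, 20.8% were called higher and 19.6% lower. In the list, 6 of those tested reached the filter in all amputated but not in all uncut libraries. Each of these 6 was among the 13 that rose, so the rises of such genes are descriptions and not a test. They include havcr1, with 6, 9 and 3 counts in uncut libraries 1, 2 and 3, and cmklr1, with 8, 8 and 4. No gene fell in edgeR after adjustment; at an unadjusted p under 0.05, and in DESeq2, 1 did (apoeb). The median log2 fold change of the list was 1.18, beside 1.45 for the 8 members and 0.003 for all tested genes. Its summed level did not rise, at 1150 to 1423 CPM in uncut and 1005 to 1333 CPM in amputated libraries. Most of that sum was apoeb, at 1181 ± 133.2 CPM in uncut and 958.7 ± 159.7 CPM in amputated folds (SD, n = 3). The cathepsin S gene ctss2.1 rose by 3.41 ± 0.14, from 1.94 ± 0.16 to 20.9 ± 1.35 CPM (SD, n = 3). The Tim-family receptor gene havcr1, which binds phosphatidylserine on dying cells, rose by 3.48 ± 0.28, and the chemokine-like receptor gene cmklr1 by 2.52 ± 0.30. The transporter gene slco2b1 rose by 1.301 ± 0.094. The members that did not pass were ctss2.2, apoeb, apoc1, lygl1, mrc1a and p2ry12, at −0.30 to 0.52. In the fit blocked by replicate number, apoeb, which encodes an apolipoprotein, was called lower too. The complement genes c1qa, c1qb and c1qc had 0 to 7 counts per library.

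**Figure D3:**
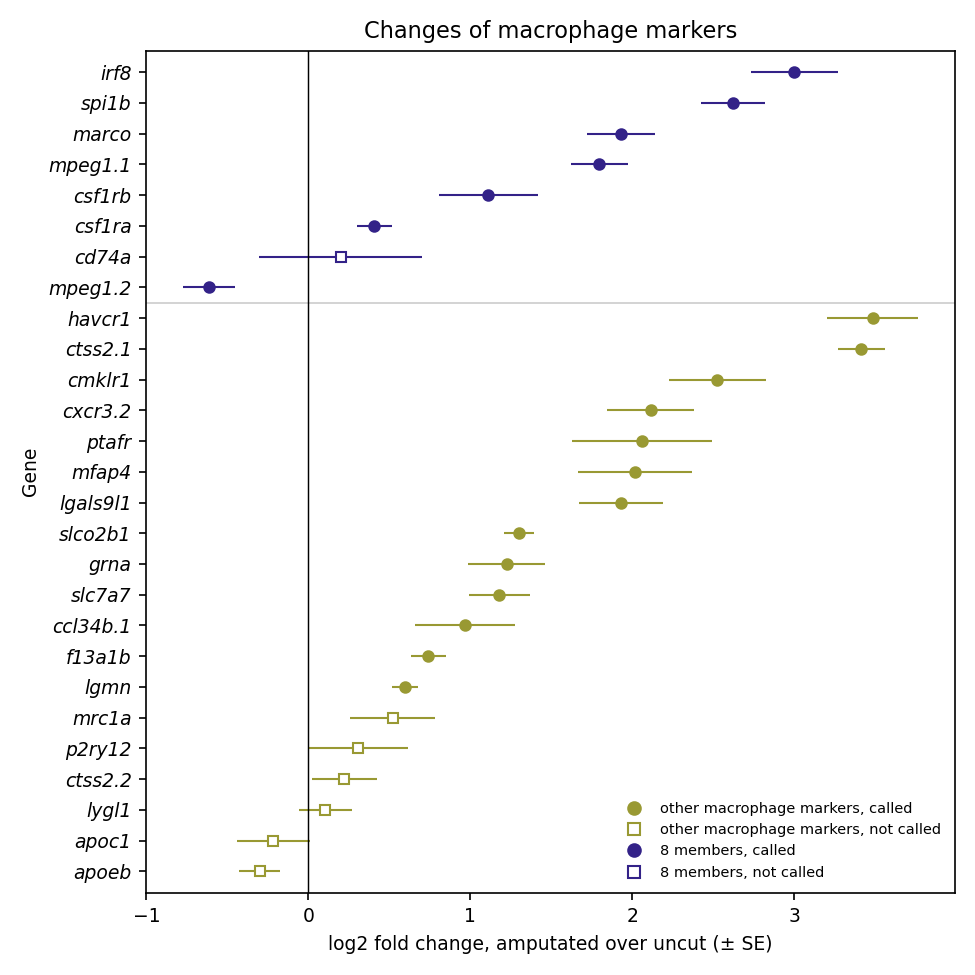
Log2 fold change, amputated over uncut, of the 8 members and of 19 other tested macrophage markers, with the standard error as bars. Filled points passed an edgeR adjusted p under 0.05 and open squares did not. Values run from −0.61 for mpeg1.2 to 3.48 for havcr1.

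Genes that act with the Csf1 receptor rose in part. Of 14 found, 7 rose, 0 fell, 6 did not pass and 1 (the adaptor gene tyrobp) had too few counts, with a median log2 fold change of 0.80. Among all tested genes, 20.8% were called higher and 19.6% lower. In this list 1 tested gene reached the low-count filter in all amputated but not in all uncut libraries. The count that fell was 0 in edgeR at an unadjusted p under 0.05 also, and 1 (tyrobp) in DESeq2, in the authors' deposited table, when low counts were not filtered, and without uncut replicate 3 or any single amputated library. Of the ligand genes, csf1a rose by 1.32 ± 0.22, while csf1b was at 0.45 ± 0.19 and il34 at 0.70 ± 0.31 without passing. The Src-family kinase gene hck rose by 2.40 ± 0.30, the phosphatase gene ptpn6 by 1.29 ± 0.15 and the ubiquitin ligase gene cblb by 0.80 ± 0.10. Adaptors used in many cells, grb2a (−0.15 ± 0.20) and grb2b (−0.15 ± 0.08), did not pass.

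Other myeloid transcription factor genes moved both ways. Of 18 found, 4 rose, 4 fell, 7 did not pass and 3 had too few counts. With 15 tested, these counts were near the shares of all tested genes (20.8% called higher and 19.6% lower). Which cells their reads came from was not tested. Their median log2 fold change was −0.06, which was 0.19 with library totals alone, within the general shift of that scaling, and 0.14 without uncut replicate 3. The rises were in ikzf1 (2.60 ± 0.40), spi1a (1.38 ± 0.27), runx3 (1.22 ± 0.18) and cebpb (1.04 ± 0.10). The falls were in cebpa (−1.45 ± 0.12), klf4 (−0.78 ± 0.24), zeb2a (−0.74 ± 0.10) and irf5 (−0.45 ± 0.11). With library totals alone, klf4 and irf5 were not called. The call of klf4 was also lost without uncut replicate 2 or 3 or amputated replicate 1 or 2. For ikzf1 the uncut libraries held 6, 4 and 2 counts, and it reached the low-count filter in all amputated but not in all uncut libraries. The untested gene runx1 had 1 count in each uncut library and 17, 15 and 11 in the amputated ones. The gene cebpa went from 139 ± 4.80 to 50.8 ± 10.5 CPM (SD, n = 3).

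The class II chain and second invariant chain genes were barely detected, like cd74a, while other genes of the pathway were at higher levels. Of 12 genes of class II antigen presentation, 3 rose, 1 fell, 5 did not pass and 3 had too few counts. Over all tested genes, 20.8% were called higher and 19.6% lower. The median log2 fold change of the list was 0.38. The second invariant chain gene, cd74b, had 2, 10 and 2 counts in the uncut and 5, 6 and 12 in the amputated libraries, and the class II chain gene mhc2dab had at most 5 in any library. Those that rose were the cathepsin L genes ctsl.1 (2.58 ± 0.19) and ctsla (0.38 ± 0.09), which act in lysosomes of many cells, and the co-stimulatory receptor gene cd40 (0.83 ± 0.22). The thiol reductase gene ifi30 fell by 0.48 ± 0.11, a call that was lost with library totals alone (adjusted p = 0.0965).

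Of 18 scavenger, pattern recognition and phagocytic receptors other than marco, 6 rose, 2 fell (mertka and colec12), 5 did not pass and 5 had too few counts. Their median log2 fold change was 0.52, and over all tested genes 20.8% were called higher and 19.6% lower. In this list (havcr1) and in the next (il1b), 1 tested gene each reached the low-count filter in all amputated but not in all uncut libraries. Beside havcr1, the rises were led by the integrin gene itgb2 (2.08 ± 0.23), the Fc receptor chain gene fcer1gl (2.11 ± 0.23) and the flagellin receptor gene tlr5a (1.49 ± 0.25). With library totals alone none of the list was called lower. Of 19 genes of macrophage recruitment and activation, 7 rose, 0 fell, 4 did not pass and 8 had too few counts, with a median of 0.62; the count that fell was 0 also at an unadjusted p under 0.05 in edgeR and in DESeq2, and the same held for the neutrophil markers below. The gene irg1, which makes itaconate in activated macrophages, rose by 1.59 ± 0.22, the cytokine gene il1b by 3.08 ± 0.24, tgfb1a by 0.45 ± 0.07 and the receptor gene il4r.1 by 0.81 ± 0.14.

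Most tested neutrophil and pan-leukocyte markers also rose, where 20.8% of all tested genes were called higher and 19.6% lower. Among those tested, 2 neutrophil and 4 pan-leukocyte markers reached the low-count filter in all amputated but not in all uncut libraries. Of 14 neutrophil markers, 8 rose, 0 fell, 3 did not pass and 3 had too few counts, with a median log2 fold change of 2.17; the summed level was 303.5 to 312 CPM in uncut and 432 to 482 CPM in amputated libraries, and none of the 14 was at 0 throughout. The largest part of that sum was padi2, which did not pass (218 ± 10.4 CPM in uncut and 225 ± 23.7 CPM in amputated folds; SD, n = 3). The receptor gene cxcr2 had at most 4 counts in any library. The granule genes mpx and lyz rose by 2.50 ± 0.27 and 2.80 ± 0.32, and srgn by 1.71 ± 0.15. The listed gene lect2l rose by 4.26 ± 0.30, from 31, 12 and 11 counts in the uncut libraries. It was 1 of the 2 neutrophil markers that reached the low-count filter in all amputated but not in all uncut libraries. Of 16 pan-leukocyte markers, 12 rose, 1 fell (rac2, a call lost with library totals alone) and 3 did not pass, with a median of 1.76 and a summed level of 240 to 282.5 CPM in uncut and 275 to 301 CPM in amputated libraries. Most of that sum was rac2 and arpc1b, which did not rise (134 and 81.8 CPM in uncut, 107 and 76.2 CPM in amputated folds). The actin-binding genes coro1a and lcp1 rose by 2.40 ± 0.13 and 2.93 ± 0.21. The gene plek rose by 4.04 ± 0.32, from 9, 6 and 3 counts in the uncut libraries. The part of neutrophils in the rise of spi1b, or of any member that they share, was not tested.

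The gene mpeg1.1 was also set against a pan-leukocyte and a neutrophil gene within libraries. The log2 ratio of mpeg1.1 to lcp1 was 0.50, 1.14 and 0.35 in uncut and −0.32, −0.50 and −0.44 in amputated replicates 1, 2 and 3, lower in all of the latter (exact two-sided permutation p = 0.1, adjusted 0.15). The log2 ratio of mpeg1.1 to mpx was −0.86 ± 0.28 and −1.57 ± 0.52 (SD, n = 3) and overlapped between the groups, with amputated replicate 3 at −1.01 (exact permutation p = 0.2, adjusted 0.24).

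**Figure D4:**
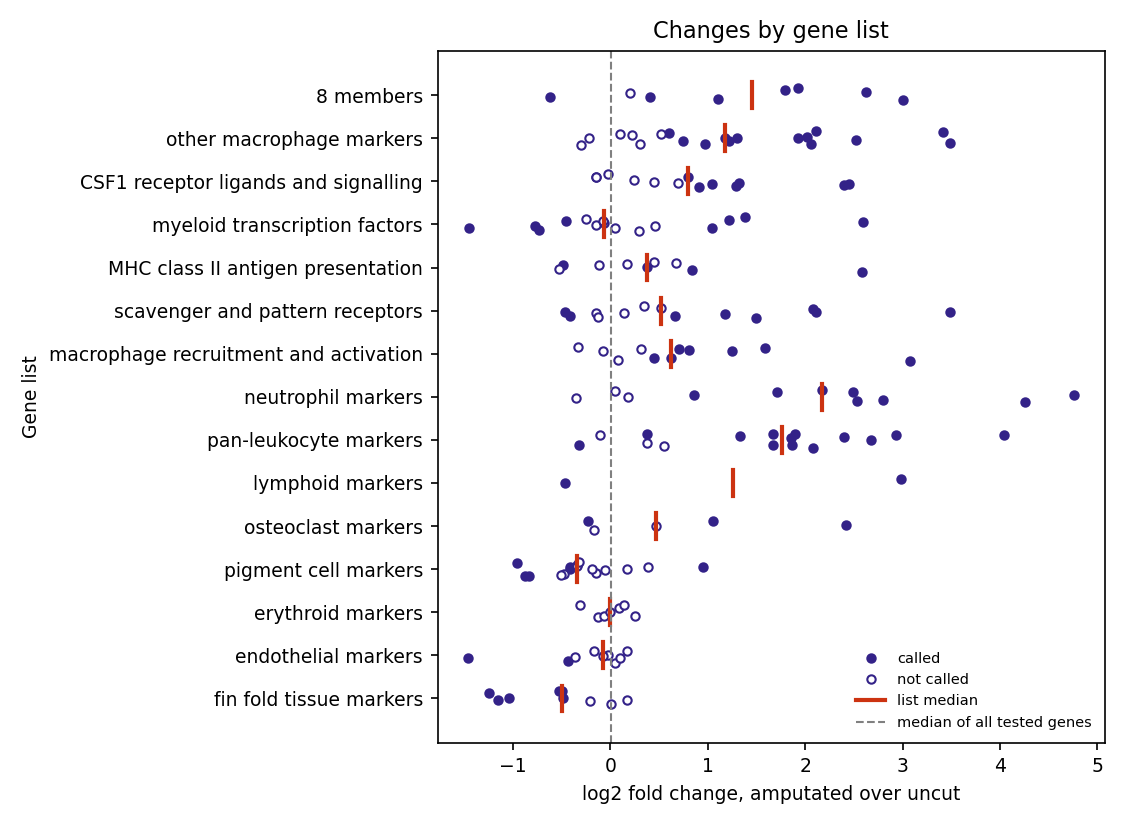
Log2 fold change, amputated over uncut, of every tested gene in each list, with a red bar at the list's median and a dashed line at the median of all tested genes. Filled points passed an edgeR adjusted p under 0.05. The medians of neutrophil markers (2.17), pan-leukocyte markers (1.76) and the 8 members (1.45) lie above that line, and those of pigment cell and fin fold tissue markers lie below it.

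The genes whose pattern over the 6 libraries was most like that of a member were found by the root mean square difference of centred log2 levels, among 10968 named genes that averaged 5 CPM or more. For mpeg1.1 they were mrto4, itga5 and acp6, at 0.042, 0.051 and 0.073. For irf8 they were dusp5, adam8a and ctsl.1, at 0.15, 0.154 and 0.155. For mpeg1.2 they were ccng2, arrdc3a and six4a, at 0.095, 0.096 and 0.101. The levels had 0.5 CPM added before the logarithm, which shrinks the changes of genes at low levels. With groups this far apart, the measure mainly finds genes of a similar change on that scale. The fitted log2 fold changes of the matches were 1.565, 1.657 and 1.577 for mpeg1.1 (itself 1.80). They were 2.445, 2.648 and 2.585 for irf8 (itself 3.00) and −0.732, −0.564 and −0.614 for mpeg1.2 (itself −0.61).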

How the data were processed

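Per the labels' protocols, Trizol RNA went into TruSeq libraries. The submitters' processing notes name TopHat, Cufflinks and DESeq2; read counter, genome build and annotation are not stated in the labels or headers, so coordinates are those of the table. The deposited table held raw counts per gene, a signal normalized by the authors, each count over 1 size factor per library (largest relative deviation 5.5e-10), and its mean. It also held the authors' log2 fold change (uncut over amputated), its standard error, a Wald score, and a p-value and adjusted p-value per the file headers.

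The test was run in edgeR 4.0.16 (R 4.3.3): filterByExpr (minimum count 10, minimum total 15), TMM, glmQLFit and glmQLFTest, with Benjamini-Hochberg adjustment over all tested genes and no covariate. Log2 fold changes are amputated over uncut. Standard errors divide the size of that value by the square root of F, and intervals are at 95%. On simulated counts for this comparison, 17754 genes were tested, with 50 changed per size. Changes of 0.5, 1, 2 and 3 (log2) were called in 36%, 92%, 100% and 100% of cases. Of 17554 genes without a change, 11 were called. The changed genes, 200 in all, were drawn only from those above a floor of mean counts. The rates therefore do not cover a low-count gene such as cd74a. Far more genes were called in the data, so the rates need not hold there.

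The members and the 14 gene lists were chosen with earlier results of these data known. Of 216 list entries, 202 were found by symbol and 6 by ID, 1 repeated a row of its own list and 7 were not found. Some lists overlap, and a shared gene counts in each. The genes havcr1 and mrc1a were among both the other macrophage markers and the scavenger receptors. The gene itgb2 was among both the scavenger receptors and the pan-leukocyte markers. Genes are named by rule: all members, up to 4 called genes per list in order of adjusted p (the 2 highest where none passed), and genes most like 3 members. Others were named after their values were seen: csf1b, il34, grb2a, grb2b, gch2, xdh, aox5, apoeb, c1qa, c1qb, c1qc, cd74b, mhc2dab, mertka, colec12, rac2, cxcr2, tyrobp, ikzf1, spi1a, runx1, klf4, irf5, padi2, arpc1b, mpeg1.3, overlapping genes and those of a list that did not pass. Within-library ratios used counts plus 0.5 and an exact two-sided permutation test. Deviations from group means correlated at 0.251, 0.211 and 0.156 in same-numbered libraries and at −0.175 to −0.034 in others. The negative values follow from the centring once the same-numbered ones are positive, and are not separate evidence. With 3 libraries per group, such a match can also arise by chance. The replicate number was taken as a possible pairing, seen in the data and not stated in the labels. It was entered as a block in 1 of the alternatives. Other alternatives were DESeq2 size factors, library totals alone, DESeq2 1.42.0, no filter, the authors' calls and each library left out.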

Additional observations from a re-analysis of the deposited data

How the results depend on the processing

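The 6 rises among the members kept their direction and call under all 12 alternatives: DESeq2 size factors, library totals alone, DESeq2, no filter, the replicate block, the authors' deposited calls and each library left out. The fall of mpeg1.2 kept its direction in all of them and its call in all but library totals alone (−0.357, edgeR adjusted p = 0.0787), where the count of members called lower was 0. That scaling called 6821 genes higher and 1636 lower, where TMM called 3724 and 3499. Without a library, cd74a ranged from −0.157 (without uncut replicate 2) to 1.034 (without uncut replicate 1), and was −0.052 without uncut replicate 3; it passed in no setting. The count of other macrophage markers called lower was 1 (apoeb) in place of 0 with DESeq2, no filter on low counts, the replicate block, and without uncut replicate 3 or amputated replicate 1. Of the Csf1 receptor list, tyrobp was called lower with DESeq2, the authors' calls, no filter, and without uncut replicate 3 or amputated replicate 1, 2 or 3. The causes were not tested. The replicate block, with the replicate number as pairing, changed no call of a member (mpeg1.1 at 1.806, mpeg1.2 at −0.628, cd74a at 0.26, adjusted p = 0.695). For the ratios it gave sign-flip p-values no lower than 0.25, the smallest that 3 pairs allow. No ratio difference changed sign with a pseudocount of 1 or without any one library. The members cd74a, csf1rb and irf8 had the fewest counts in the uncut libraries. Their uncut coefficients of variation were 81.3%, 39.3% and 47.7%, where counting error alone gives on average 39.5%, 28.3% and 33.1%. The part of depth in this spread was not tested.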

Other observations

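Markers of further cell types that a fin fold can hold were counted beside those of macrophages. The shares to read them against are those of all tested genes, 20.8% called higher and 19.6% called lower. Osteoclasts, bone-resorbing cells of the same lineage, share some genes with macrophages. Of 6 osteoclast markers found, acp5a rose by 2.41 ± 0.44 and tnfrsf11a by 1.06 ± 0.26 on the log2 scale, and 2 did not pass, 1 was not tested and ctsk fell by 0.23 ± 0.07. The uncut libraries held 2, 10 and 3 counts of acp5a, which reached the low-count filter in all amputated but not in all uncut libraries. For ctsk the edgeR adjusted p was 0.055 with uncut library 2 left out, 0.0853, 0.0601 or 0.0771 with amputated library 1, 2 or 3 left out, 0.0517 with no filter, and with library totals alone, where it was at 0.03, 0.8. Of 14 lymphoid markers 12 had too few counts to test, and cd8a had 0 counts in every library. The chemokine receptor gene ccr9a rose by 2.98 ± 0.47 and tox fell by 0.46 ± 0.14. For ccr9a the uncut libraries held 1, 4 and 6 counts, and it reached the low-count filter in all amputated but not in all uncut libraries. For tox the edgeR adjusted p was 0.251 with library totals alone, 0.0735 or 0.0657 with uncut library 1 or 3 left out, and 0.0763 or 0.0656 with amputated library 1 or 2 left out.

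Of 10 red cell markers 7 were tested and 0 passed in edgeR, also at an unadjusted p under 0.05, or in DESeq2; the globin gene hbae3 was at −0.07 ± 0.26, with levels of 78.4 ± 34.6 and 75.7 ± 20.1 CPM (SD, n = 3); hbbe1.1 was at −0.13 ± 0.32. Both were above 0 with library totals alone, at 0.19 and 0.13. They were also above 0 without uncut replicate 2 (0.304 and 0.33) or amputated replicate 3 (0.101 and 0.1). With the replicate block hbae3 was at 0.002. Of 10 endothelial markers 7 did not pass, 1 was not tested and 2 fell, where 19.6% of all tested genes were called lower. The falls were 1.46 ± 0.15 for egfl7 and 0.43 ± 0.09 for fli1a. The latter was not called with library totals alone (edgeR adjusted p = 0.172). Of the 9 fin fold tissue genes, 6 fell, among them and1, and2, col1a1a and tp63 (by 1.25 ± 0.12, 1.16 ± 0.12, 1.04 ± 0.13 and 0.50 ± 0.08). In the authors' deposited table col1a1a was not called (adjusted p = 0.0532), and 5 fell. The count that fell was also 5 without uncut replicate 3 or amputated replicate 2 or 3. It was 4 with library totals alone and 7 with the replicate block. The count that rose was 0 as reported, and 1 with library totals alone, with the replicate block or without uncut replicate 1.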
